A study of Homo sapiens with 33 samples.

Results

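The genes described here are 37 human genes of the lysosome and of autophagy, chosen by symbol from the 56470 gene symbols of the count table, and all 37 were found. They comprise 5 membrane and cholesterol-transport genes, 10 cathepsins and peptidases, 8 further hydrolases and their activators, 5 genes of the proton pump, 3 transcription factors and 6 autophagy genes. RNA was sequenced from the head and neck squamous cell carcinoma (HNSCC) lines SCC1, SCC6 and SCC25, cultured with 100 nM cetuximab (CTX), an antibody that blocks the epidermal growth factor receptor (EGFR), or with phosphate-buffered saline (PBS). PBS cells were collected on days 0 to 5 and cetuximab cells on days 1 to 5, 1 library per line, treatment and day, 33 libraries in all. The labels of SCC6 with cetuximab give day 2 to 2 libraries and day 1 to none, so its 5 libraries are taken here as 2 of day 2 and 1 each of days 3, 4 and 5. Each line is a single established culture. The labels give SCC6 a medium of its own and hydrocortisone in those of SCC1 and SCC25, whereas the study's methods name 1 medium for all 3 lines. The 5 PBS and 5 cetuximab libraries of days 1 to 5 stand in for replicates in each line, so that the tests measure a difference against the spread between days. Nothing in the labels says that they came from separate cultures, and that spread may be partly technical.

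Lysosomes are acidic compartments in which hydrolases break down material delivered by endocytosis and by autophagy, the process that encloses cytoplasm in a double-membraned autophagosome. The compartment is acidified by the vacuolar proton pump (V-ATPase), and the cathepsins, a family of proteases, work at that low pH. The transcription factors TFEB, TFE3 and MITF bind the sequence CACGTG, within a longer element known as CLEAR, upstream of many lysosome genes, and the kinase mTORC1, which acts downstream of growth factor receptors such as EGFR, keeps TFEB and TFE3 in the cytoplasm. Gene expression is read here as mRNA level, which does not measure lysosome number, enzyme activity or autophagic flux.

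The CACGTG letters were looked for in the promoters, because the 3 factors among the 37 genes are known to bind them. The RefSeq promoter table (GRCh38.p14) held a window, from 250 bases before the start site to 50 after it, for 25 of the 37 genes. CACGTG, which reads the same on both strands, was in a window of 8 of the 25 genes (LAMP1, MCOLN1, CTSA, CTSD, CTSF, GAA, NEU1 and ATP6V0D1). The 25 genes have 32 windows, of which 8 held it, against 7.26% of all 35116 windows. The longer TCACGTGA, which contains CACGTG, was in 5 of the 25 genes, in 5 of their 32 windows and in 0.98% of all windows. TGTTTAC, the letters bound by FOXO factors and searched on both strands, was in CTSF and CTSL, in 2 of the 32 windows and in 3.42% of all windows. Stretches of 7 of these windows are shown 5′ to 3′ on the gene's strand, with CACGTG in capitals, because they let the 7 genes be compared letter by letter.
LAMP1: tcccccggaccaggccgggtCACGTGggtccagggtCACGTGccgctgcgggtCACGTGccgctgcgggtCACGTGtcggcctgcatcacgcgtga
MCOLN1: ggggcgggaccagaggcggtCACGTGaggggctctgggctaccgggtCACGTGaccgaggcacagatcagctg
CTSD: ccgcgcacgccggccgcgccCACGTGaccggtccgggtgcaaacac
CTSF: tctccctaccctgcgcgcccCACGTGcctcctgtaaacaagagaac
GAA: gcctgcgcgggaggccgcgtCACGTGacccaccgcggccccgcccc
NEU1: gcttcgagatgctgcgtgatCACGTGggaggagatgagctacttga
ATP6V0D1: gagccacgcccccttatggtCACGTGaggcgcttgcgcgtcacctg
In GRCh37 these letters lie at chr13:113951342-113951437 (LAMP1, plus strand), chr19:7587449-7587521 (MCOLN1, plus), chr11:1785179-1785224 (CTSD, minus), chr11:66336103-66336148 (CTSF, minus), chr17:78075284-78075329 (GAA, plus), chr6:31830699-31830744 (NEU1, minus) and chr16:67515094-67515139 (ATP6V0D1, minus). The stretches of LAMP1, CTSF, GAA, NEU1 and ATP6V0D1 overlap no annotated exon of the gene, while that of MCOLN1 includes 12 and that of CTSD 16 exonic bases. The window of LAMP1, which encodes an abundant lysosomal membrane protein, holds 6 copies of CACGTG, of which 4 are in the stretch shown. Those of MCOLN1, CTSF, GAA and CTSA hold 2 copies each.

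Library totals on days 1 to 5 ranged from 28508758 to 80727478 estimated counts. The highest were SCC6 cetuximab of days 4 and 5, at 80727478 and 75170052. The other SCC6 libraries reached at most 43874073. The sample titles carry 5 run identifiers, read here as flow cells. One of them held only SCC6 cetuximab of days 4 and 5. SCC1 cetuximab shared a flow cell with SCC1 PBS of day 5 and with no earlier SCC1 PBS, and SCC25 cetuximab of days 3 to 5 shared none with SCC25 PBS. Within each line the libraries were also compared for a slope of expression on gene GC content. The SCC25 cetuximab library of day 3 stood apart with -0.34 on the log2 scale per 10 percentage points, against -0.07 to 0.15 in the other SCC25 libraries. In SCC6 the slope was 0.42 and 0.24 in cetuximab of days 4 and 5 and 0.32 in PBS of day 1. It was between -0.25 and -0.03 in the others. In SCC1 the slope ran from -0.11 in PBS of day 5 to 0.11 in cetuximab of day 5. DUSP6, a phosphatase induced by the ERK pathway downstream of EGFR, changed with cetuximab by -3.19 in SCC1, -1.99 in SCC6 and -1.22 in SCC25 on the log2 scale. Of 14 ERK output genes, 11, 13 and 11 fell in these lines, where 22.1%, 14.6% and 9.5% of all genes tested fell. All 10 squamous epithelial markers averaged at least 1 CPM (counts scaled to the size of the library) in SCC1 and SCC25 and 9 of 10 did in SCC6. The summed squamous markers were at 1539 to 2889 CPM with PBS and 6813 to 11851 CPM with cetuximab in SCC1, 1382 to 2661 CPM with PBS and 1907 to 2754 CPM with cetuximab in SCC6 and 12442 to 18816 CPM with PBS and 15242 to 18462 CPM with cetuximab in SCC25. The summed 8 fibroblast markers did not overlap between the treatments, at 21.03 to 32.9 CPM with PBS and 50.1 to 146 CPM with cetuximab in SCC1, 2.97 to 5.08 CPM with PBS and 9.05 to 115 CPM with cetuximab in SCC6 and 148 to 197 CPM with PBS and 255 to 407 CPM with cetuximab in SCC25, while COL3A1 and THY1 averaged under 0.1 CPM in SCC1 with either treatment. Of the 8, only 2 averaged at least 1 CPM in SCC1 with either treatment. In SCC6, 1 did with PBS and 3 with cetuximab, and in SCC25, 7 and 6 did. The highest marker was COL1A1 in SCC1 (mean 16.9 CPM with PBS and 55.2 with cetuximab) and SCC6 (3.0 and 40.0). In SCC25 it was COL1A2 (63.6 and 103). In SCC25, 4 of the 8 rose and 1 fell, where 8.8% and 9.5% of all genes did. The summed 8 leukocyte markers reached at most 14.98 CPM (SCC1 with cetuximab) and the 4 endothelial markers at most 18.5 CPM (SCC1 with cetuximab). PTPRC, the pan-leukocyte marker, averaged under 0.1 CPM in SCC1 and SCC6. The part of library totals, GC content, flow cell and these markers in the results below was not tested beyond the values given.

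In PBS the level of 35 of the 37 genes differed between the lines, where 87.4% of all 19744 genes tested differed, and only ATP6V1A (adjusted p = 0.29) and ULK1 (0.41) did not pass. SCC1 had the highest mean for 18 genes, SCC25 for 15 and SCC6 for 4. The widest difference was that of CTSK, the collagen-degrading cathepsin K, at 86.9 ± 9.22 CPM in SCC25 (SD, n = 5) and about 1 CPM in the others (0.798 ± 0.201 in SCC1, 1.11 ± 0.198 in SCC6). CTSH, an aminopeptidase of the cathepsin family, was also highest in SCC25, at 224 ± 23.04 CPM, against 53.1 ± 17.9 in SCC6 and 22.7 ± 4.48 in SCC1.
The factors had different orders. TFEB was highest in SCC25 (9.93 ± 1.68 CPM) and low in SCC1 (2.296 ± 0.183) and SCC6 (1.71 ± 0.372), TFE3 was highest in SCC1 (73.9 ± 10.2 CPM), and MITF was highest in SCC6 (42.998 ± 10.5 CPM against 10.1 ± 1.59 in SCC25 and 3.99 ± 1.05 in SCC1). All 3 pairs of lines differed for TFE3 and MITF (adjusted p at most 0.0015) and for TFEB (at most 0.031). SCC6 had the lowest mean for 6 of the 8 hydrolases and activators, and also for TPP1, a peptidase of the lysosome, at 47.1 ± 5.78 CPM, while SCC1 at 209.7 ± 15.9 and SCC25 at 219 ± 5.47 did not differ beyond their spread (adjusted p = 0.42). Of these PBS libraries only those of SCC1 of day 5 and SCC6 of day 1 shared a flow cell between lines, so that line and flow cell cannot be told apart in these levels.

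**Figure D1:**
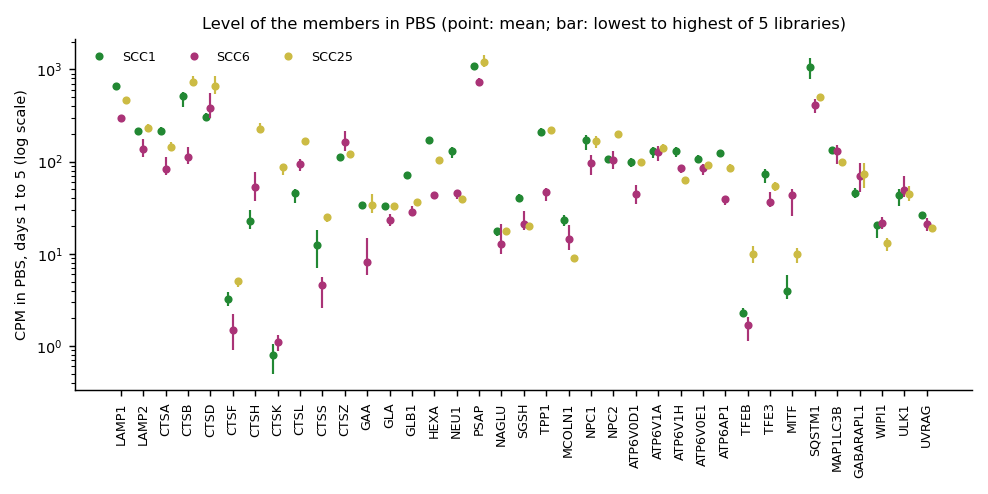
CPM in PBS on a log axis for the 37 genes, with the mean of the 5 libraries of days 1 to 5 as a point and their range as a bar, for SCC1, SCC6 and SCC25. CTSK in SCC25 sits near 86.9 CPM while the other lines are near 1 CPM, and MITF is highest in SCC6, and heights of different genes are not comparable because CPM is not corrected for gene length.

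More of the 37 genes were higher than lower with cetuximab in each line. The genes were chosen with earlier results of these data known, so their shares are set beside those of all genes as a description. In SCC1, 19 rose and 5 fell, that is 51.4% and 13.5% of the 37. Of all 17984 genes tested there, 44.8% changed, 22.7% up and 22.1% down. In SCC6, 15 rose and 3 fell, that is 40.5% and 8.11%. Of 17387 genes tested, 30.1% changed, 15.6% up and 14.6% down. In SCC25, 10 rose and none fell, 27.0% of the 37. Of 19101 genes tested, 18.3% changed, 8.8% up and 9.5% down. In SCC25, 1 of the 37 was lower at an unadjusted p under 0.05, and DESeq2, another count test, called 12 higher and none lower. The median log2 fold change of the 37 was 0.19 in SCC1, 0.26 in SCC6 and 0.13 in SCC25, and that of all genes was 0.02, 0.00 and 0.01. All 37 passed the filter on low counts in every line. In such bulk RNA, fewer cells of a type and less RNA per cell cannot be told apart. Cetuximab lay above PBS without overlap for 15 of the genes and below it for 3 in SCC1, for 8 and 2 in SCC6 and for 6 and 0 in SCC25, where 15.3% and 16.0%, 10.8% and 8.32%, and 6.86% and 7.88% of all genes tested were separated in these directions.

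With the flow cell as a covariate 11 rose and 2 fell in SCC1 (11.0% and 12.4% of all genes), 10 rose and 4 fell in SCC6 (15.4% and 15.2%) and 2 rose and 1 fell in SCC25 (3.5% and 3.92%). The calls lost with it in SCC1 were those of CTSH, CTSZ, HEXA, NAGLU, TPP1, NPC2, ATP6V0E1, TFEB, TFE3, MITF, MAP1LC3B and WIPI1. In SCC6 they were those of LAMP1, CTSH, CTSK, GLB1, PSAP, ATP6V1A and TFEB. In SCC25 they were those of LAMP2, CTSB, CTSH, CTSK, HEXA, PSAP, ATP6V1A and GABARAPL1. That fit compares libraries within a flow cell, so in SCC1 it sets cetuximab against PBS of day 5 alone. In SCC25 it sets cetuximab of days 1 and 2 against PBS. In SCC6 it sets cetuximab of days 2 and 3 against PBS of days 2 to 5. Its changes thus rest on fewer libraries and other days than those of the main test, and are not the same changes corrected for flow cell. With each library's trend on GC content removed, 19 rose and 6 fell in SCC1 (22.5% and 31.0% of all genes), 16 and 7 in SCC6 (19.8% and 28.0%) and 18 and 2 in SCC25 (13.2% and 22.7%). With the day as a block no call was lost. There 19 rose and 8 fell in SCC1 (24.1% and 23.0%), 23 and 6 in SCC6 (23.2% and 22.6%) and 13 and 1 in SCC25 (12.6% and 14.2%). SCC6 PBS of day 1, without a cetuximab library of its day, adds nothing to the change in that fit. The calls gained with the block in SCC1 were falls of CTSB (adjusted p = 0.0052), CTSS (0.025) and GLA (0.027). In SCC6 they were rises of CTSA (adjusted p = 0.023), CTSF (0.011), CTSZ (0.019), GAA (0.0047), NAGLU (0.0042), SGSH (0.034), ATP6V0D1 (0.023) and TFE3 (0.042) and falls of NPC1 (adjusted p = 0.028), ATP6V1H (0.029) and MAP1LC3B (0.016). In SCC25 they were rises of LAMP1 (adjusted p = 0.01), CTSA (0.043) and MITF (0.0042) and a fall of NPC1 (adjusted p = 0.0032). In SCC1, 8 fell without PBS of day 1, and 3 fell without PBS of day 3, PBS of day 4 or cetuximab of day 4. Of all genes, 8220, 7083, 7129 and 7184 changed in either direction in these fits, in that order, against 8061 in the main test. In SCC25, 1 fell without PBS of day 1, where 2593 of all genes changed in either direction, against 3496 in the main test. Without the SCC25 cetuximab library of day 3, 17 rose and none fell in SCC25, where 10.0% of all genes rose and 10.6% fell. The 7 genes gained were LAMP1, CTSA, CTSD, GAA, GLB1, ATP6AP1 and ULK1. Without the SCC6 PBS library of day 1, 18 rose and 6 fell in SCC6 (18.9% and 17.9% of all genes). Without PBS of day 2, 8 rose and 3 fell (11.5% and 11.0%). Without cetuximab of day 4, 9 rose and 3 fell (12.5% and 10.7%), and without cetuximab of day 5, 9 rose and 3 fell (11.9% and 10.0%).

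**Figure D2:**
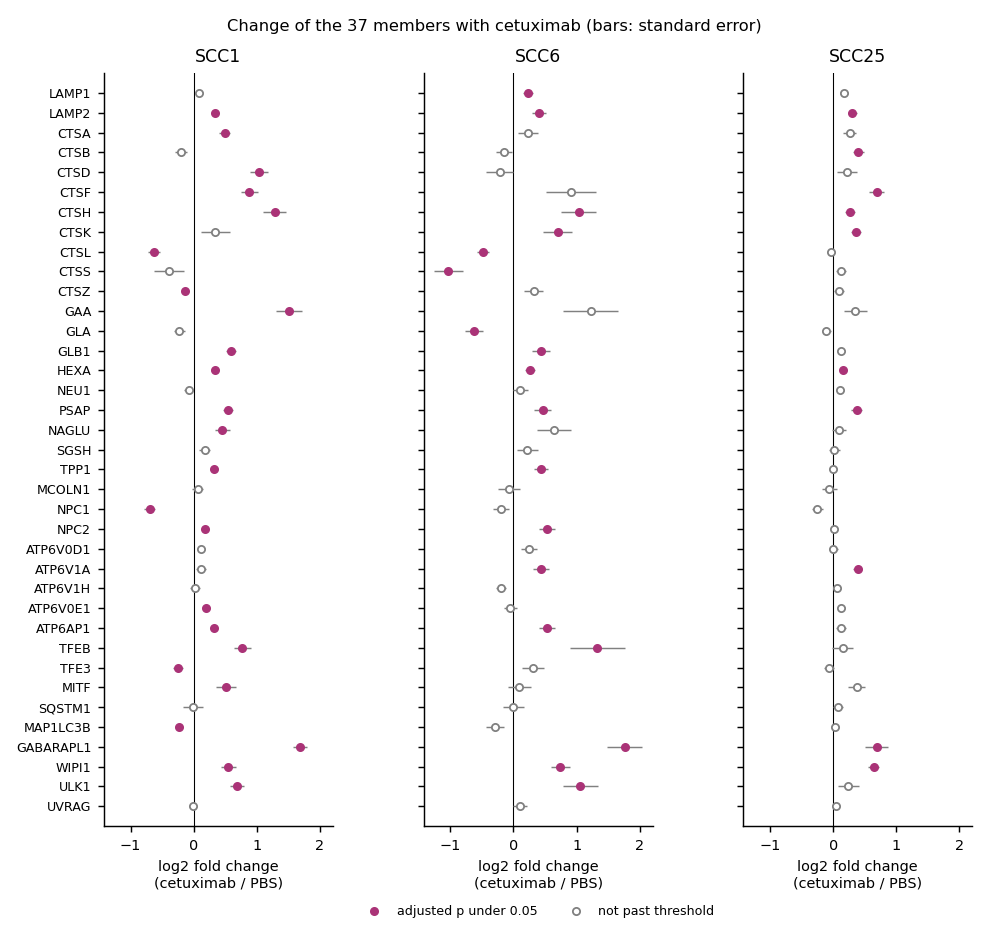
Log2 fold change of cetuximab over PBS for the 37 genes in SCC1, SCC6 and SCC25 (5 against 5 libraries), with the standard error as a bar, filled where the adjusted p was under 0.05. Filled points lie mostly to the right of 0, with 19 of 37 rising in SCC1, 15 in SCC6 and 10 in SCC25, and GABARAPL1 has the largest rise in SCC1 and SCC6.

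Of the 37 genes, 6 rose in all 3 lines (GABARAPL1, WIPI1, LAMP2, CTSH, PSAP and HEXA), where 3.08% of the 15763 genes tested in all lines did, and none fell in all 3, where 3.91% did. With the flow cell as a covariate none of the 37 rose in all 3 lines, as each of the 6 failed to pass in at least 1 line. With the GC trend removed 10 did, and 13 with the day as a block besides. Without SCC25 PBS of day 2, cetuximab of day 4 or cetuximab of day 5 there were 3 (LAMP2, PSAP and WIPI1). The share of all genes that rose in all 3 lines was computed for the main test alone. The largest rises were those of GABARAPL1, a ubiquitin-like protein of the LC3 family that is coupled to lipid on the autophagosome membrane. GABARAPL3 is a near-identical copy of it, and how reads were split between them was not tested. On days 1 to 5 in SCC1 it was at 42.8, 40.3, 45.2, 49.03 and 51.5 CPM with PBS and at 108, 144, 157, 164 and 158 CPM with cetuximab (log2 fold change 1.68 ± 0.11 SE, adjusted p = 7e-07). Every cetuximab library was above every PBS library there, and the gap was already present on day 1.
In SCC6, with the cetuximab values in the order of the 2 libraries of day 2 and then days 3, 4 and 5, it was at 46.6, 56.01, 68.1, 80.1 and 97.6 CPM with PBS and at 178, 114, 248, 302 and 347 CPM with cetuximab (log2 fold change 1.76 ± 0.28 SE, adjusted p = 0.00092). In SCC25 it was at 51.3, 56.98, 76.2, 90.9 and 95.7 CPM with PBS and at 88.3, 103, 124, 145 and 142 CPM with cetuximab (log2 fold change 0.69 ± 0.18 SE, adjusted p = 0.023). The groups did not overlap in SCC6. In SCC25 cetuximab was above PBS on each matched day, but the cetuximab library of day 1 lay below PBS of days 4 and 5. In SCC25 the call was lost without PBS of day 2, cetuximab of day 4 or cetuximab of day 5 (adjusted p up to 0.063). Once flow cell was added to the fit the log2 fold change was 0.36 (adjusted p = 0.31).

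WIPI1, which binds phosphoinositides on forming autophagosomes, rose by 0.55 to 0.74 on the log2 scale, and its groups, like those of HEXA, were apart in each line. Its values in day order were 14.9, 21.6, 21.6, 21.1 and 22.3 CPM with PBS and at 22.6, 29.2, 33.4, 30.9 and 31.8 CPM with cetuximab in SCC1 (log2 fold change 0.55 ± 0.12 SE, adjusted p = 0.0024). In SCC6 WIPI1 stood at 18.6, 18.9, 25.4, 20.8 and 22.8 CPM with PBS and at 34.1, 26.1, 46.2, 35.5 and 38.1 CPM with cetuximab (log2 fold change 0.74 ± 0.15 SE, adjusted p = 0.0031). In SCC25 WIPI1 stood at 10.7, 12.9, 13.6, 13.6 and 14.8 CPM with PBS and at 19.3, 18.95, 19.3, 23.6 and 21.6 CPM with cetuximab (log2 fold change 0.64 ± 0.09 SE, adjusted p = 0.0011). The lowest cetuximab library was above the highest PBS library in all 3 lines, by a narrow margin in SCC1 and SCC6. With the flow cell as a covariate the log2 fold change was 0.42 (adjusted p = 0.18) in SCC1, 0.67 (adjusted p = 0.0088) in SCC6 and 0.55 (adjusted p = 0.017) in SCC25.

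**Figure D3:**
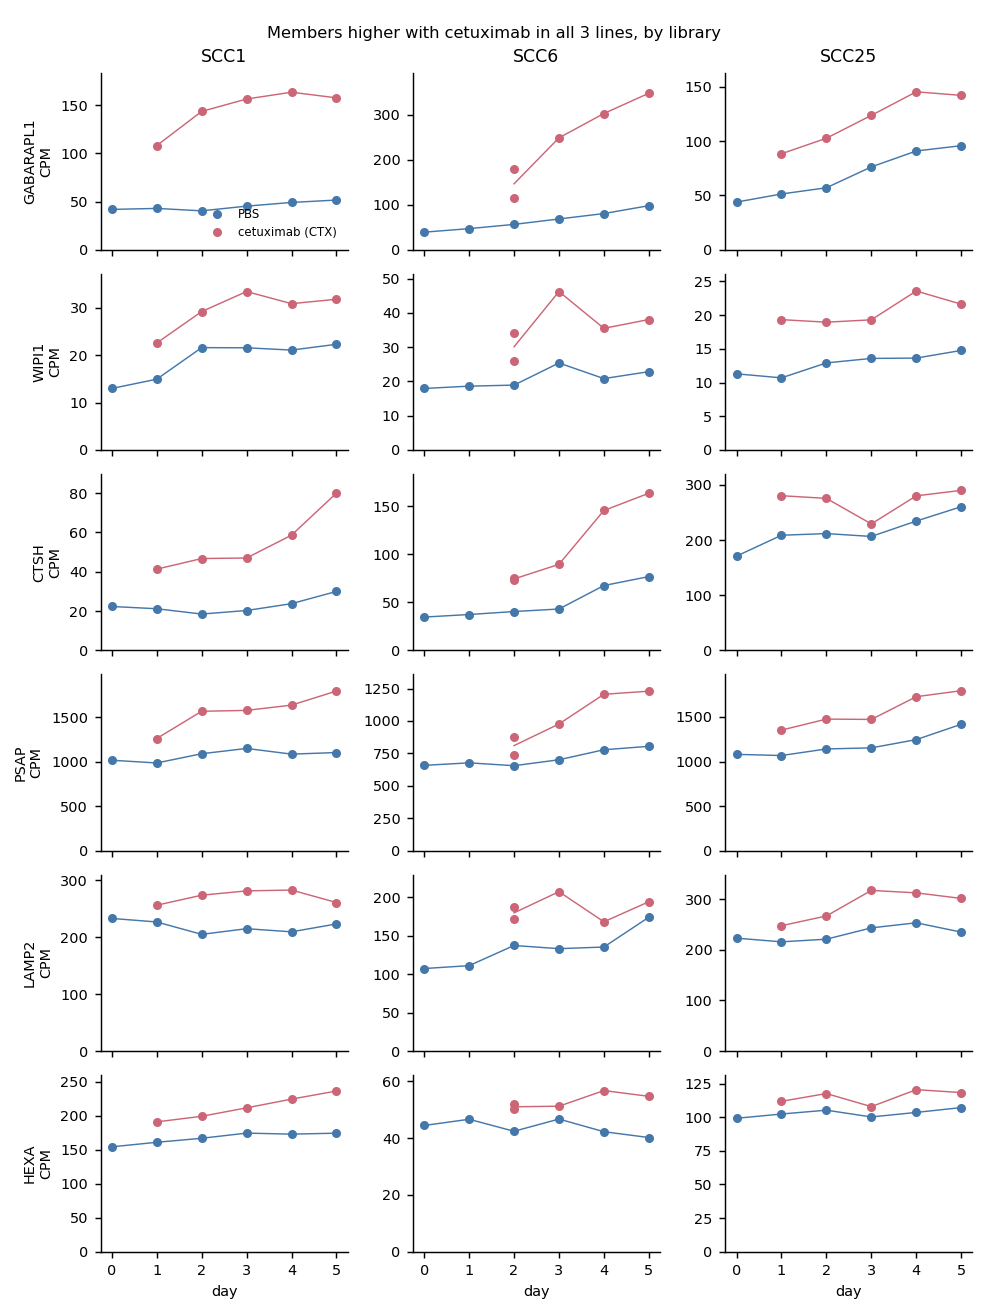
CPM of the 6 genes that rose in all 3 lines by day of culture, with 1 point per library, blue for PBS (days 0 to 5) and red for cetuximab (days 1 to 5, with 2 libraries of day 2 in SCC6), lines joining the means per day and every axis starting at 0. Cetuximab lies above PBS on each matched day in every panel, and GABARAPL1 in PBS climbs with the day in SCC6 and SCC25.

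Of the membrane and transport genes, 2 rose and 1 fell in SCC1, 3 rose in SCC6 and 1 rose in SCC25. LAMP2, the second major lysosomal membrane protein and a receptor of chaperone-mediated autophagy, went from 216 ± 9.15 CPM (SD, n = 5) to 271 ± 11.998 CPM in SCC1 (log2 fold change 0.34 ± 0.05 SE, adjusted p = 0.00014). It went from 138 ± 22.6 CPM to 186 ± 16.1 CPM in SCC6 (adjusted p = 0.018, lost without cetuximab of day 3) and from 234 ± 15.5 CPM to 289 ± 30.4 CPM in SCC25 (adjusted p = 0.016). Adding the flow cell gave LAMP2 a log2 fold change of 0.14 (adjusted p = 0.25) in SCC25. LAMP1 had a smaller change, which passed the test in SCC6 alone (log2 fold change 0.23, adjusted p = 0.038), and there it was lost when any 1 of 8 libraries was left out. NPC1 and NPC2, the membrane and the soluble protein that move cholesterol out of the lysosome, did not go the same way.
NPC1 in SCC1 was at 133, 164, 196, 183 and 181 CPM with PBS and at 96.1, 108, 118, 101 and 100.4 CPM with cetuximab (log2 fold change -0.70 ± 0.09 SE, adjusted p = 5.7e-05). All 5 cetuximab libraries of SCC1 lay below all 5 PBS libraries. NPC1 did not pass in SCC6 (-0.20, adjusted p = 0.25) or SCC25 (-0.25, 0.078). NPC2 in SCC6 was at 82.3, 94.1, 100.3, 115 and 129.8 CPM with PBS and at 143, 137, 169, 155 and 159 CPM with cetuximab (log2 fold change 0.53 ± 0.12 SE, adjusted p = 0.006), with no overlap of the groups. In SCC1 its log2 fold change was 0.18 (adjusted p = 0.0083), and in SCC25 it was 0.01 (0.88). MCOLN1, the calcium channel of the lysosome, passed in no line (adjusted p at least 0.65).

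The 10 cathepsins and peptidases split into genes that rose and genes that fell: 5 rose and 2 fell in SCC1, 3 rose and 2 fell in SCC6, and 4 rose in SCC25. CTSH in SCC1 was at 21.2, 18.5, 20.3, 23.8 and 29.98 CPM with PBS and at 41.3, 46.7, 46.96, 58.6 and 79.96 CPM with cetuximab (log2 fold change 1.28 ± 0.18 SE, adjusted p = 0.0001). In SCC6 CTSH was at 37.4, 40.5, 43.1, 67.6 and 76.9 CPM with PBS and at 75.8, 73.1, 89.7, 146 and 164 CPM with cetuximab (log2 fold change 1.03 ± 0.27 SE, adjusted p = 0.014). Both treated and PBS values were highest on days 4 and 5 in both lines. The groups overlapped in SCC6 but not in SCC1. In SCC25 the rise was smaller, 0.27 (adjusted p = 0.039), and the call was kept when PBS of day 5 or cetuximab of day 3 was left out and lost without any other 1 of the 10 libraries (adjusted p up to 0.097). With the flow cell as a covariate it passed in no line, at 0.88 (adjusted p = 0.051) in SCC1, 0.46 (adjusted p = 0.09) in SCC6 and 0.31 (adjusted p = 0.097) in SCC25.
CTSF, a cysteine cathepsin present at a few CPM, in SCC1 was at 3.89, 3.03, 2.73, 3.31 and 3.29 CPM with PBS and at 6.86, 5.77, 4.87, 5.397 and 6.84 CPM with cetuximab (log2 fold change 0.88 ± 0.13 SE, adjusted p = 0.00017). CTSF in SCC25 was at 5.45, 5.46, 4.63, 4.31 and 5.36 CPM with PBS and at 7.802, 8.79, 6.29, 8.96 and 8.94 CPM with cetuximab (log2 fold change 0.69 ± 0.12 SE, adjusted p = 0.0023). The groups did not overlap in either line, and both calls remained once flow cell was added to the fit, at adjusted p = 0.026 and 0.016. In SCC6 CTSF did not pass (0.91, adjusted p = 0.1), at 1.98, 1.07, 1.77, 4.51 and 4.71 CPM with cetuximab, of which the last 2 are days 4 and 5, and between 0.901 and 2.1998 CPM with PBS.

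CTSD, the main aspartic protease of the lysosome, in SCC1 was at 292, 280.0, 332, 330.5 and 273 CPM with PBS and at 455, 531, 578, 659 and 836 CPM with cetuximab (log2 fold change 1.03 ± 0.14 SE, adjusted p = 6.9e-05). The treated value was higher on each later day and the PBS value was not. In SCC6 CTSD was at 559.9, 300.4, 319, 368 and 346 CPM with PBS and at 272, 270.1, 248, 490.3 and 365 CPM with cetuximab, which did not pass (adjusted p = 0.47). In SCC25 it was at 546, 638, 609.9, 695 and 846 CPM with PBS and at 838, 969, 491, 806 and 803 CPM with cetuximab, which did not pass either (0.22, adjusted p = 0.37). The 2 libraries with values apart from their neighbours, SCC6 PBS of day 1 and SCC25 cetuximab of day 3, are those with the GC slopes of 0.32 and -0.34 given above, and the GC content of the CTSD transcripts is 63.4%. With the GC trend removed, its log2 fold change was -0.54 (adjusted p = 0.00024) in SCC6 and 0.33 (adjusted p = 0.0043) in SCC25.

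CTSL, which encodes cathepsin L, fell in 2 lines. It was at 35.6, 45.6, 50.98, 49.1 and 47.5 CPM with PBS and at 25.9, 33.2, 31.9, 28.04 and 27.6 CPM with cetuximab in SCC1 (log2 fold change -0.63 ± 0.10 SE, adjusted p = 0.00018). For SCC6 the CTSL values were 108, 101, 97.4, 91.3 and 78.7 CPM with PBS and at 71.98, 75.6, 67.99, 64.95 and 64.6 CPM with cetuximab (log2 fold change -0.48 ± 0.10 SE, adjusted p = 0.0039). The groups were apart in both lines, and in SCC25 the change did not pass at a higher level, 167 ± 7.37 CPM (SD, n = 5) with PBS and 164 ± 3.12 CPM with cetuximab (adjusted p = 0.63). CTSS, cathepsin S, known for its role in antigen processing, was at 2.56, 4.92, 5.64, 4.702 and 5.13 CPM with PBS and at 2.77, 2.68, 2.57, 1.698 and 1.71 CPM with cetuximab in SCC6 (log2 fold change -1.03 ± 0.23 SE, adjusted p = 0.0067). PBS of day 1 was the lowest PBS library and lay among the treated values, below the others of its group. In SCC1 its PBS level itself climbed from 5.23 CPM on day 0 to 18.3 CPM on day 5 (0.36 ± 0.03 SE, adjusted p = 0.0035, log2 per day), and cetuximab against PBS did not pass (-0.39, adjusted p = 0.2).
CTSK in SCC6 was at 0.905, 1.21, 0.888, 1.302 and 1.25 CPM with PBS and at 1.41, 1.42, 1.51, 2.07 and 2.698 CPM with cetuximab (log2 fold change 0.70 ± 0.23 SE, adjusted p = 0.037), a separation at a very low level that was lost without any 1 of 6 libraries. In SCC25, where the gene was abundant, it rose from 86.9 ± 9.22 CPM (SD, n = 5) to 112 ± 7.35 CPM (log2 fold change 0.36 ± 0.08 SE, adjusted p = 0.0069). CTSB, cathepsin B, rose in SCC25 alone, from 722 ± 68.2 CPM (SD, n = 5) to 958 ± 133 CPM (log2 fold change 0.40 ± 0.09 SE, adjusted p = 0.012). Of the remaining peptidases, CTSA and TPP1 rose in SCC1 (0.49 and 0.32), TPP1 rose in SCC6 (0.43), and CTSZ fell in SCC1 (-0.14, adjusted p = 0.028), a call lost without PBS of day 3 or 4 or cetuximab of day 4 (adjusted p up to 0.067).

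Of the 8 other hydrolases and activators, 5 rose in SCC1, 3 rose and 1 fell in SCC6, and 2 rose in SCC25. GAA, the acid alpha-glucosidase that degrades lysosomal glycogen, had the largest change of them and was at 35.4, 34.2, 34.6, 34.03 and 30.9 CPM with PBS and at 58.8, 73.1, 90.99, 108 and 147 CPM with cetuximab in SCC1 (log2 fold change 1.51 ± 0.20 SE, adjusted p = 6e-05). The treated level was higher on each later day while PBS stayed within a narrow range. The GC content of the GAA transcripts is 64.5%, and the GC slope in SCC1 was highest in cetuximab of day 5. With the GC trend removed, the log2 fold change of GAA in SCC1 was 1.47 (adjusted p = 1.5e-05). In SCC6 GAA was at 14.8, 5.93, 5.95, 7.04 and 6.71 CPM with PBS and at 10.8, 7.85, 10.9, 34.9 and 30.6 CPM with cetuximab, which did not pass (log2 fold change 1.22, adjusted p = 0.051), and its treated values of days 4 and 5 stood well above those of the earlier days. In SCC6 with the flow cell as a covariate the log2 fold change was 0.61 (adjusted p = 0.0051), and with the GC trend removed it was 0.80 (adjusted p = 0.013). In SCC25 GAA went from 33.5 ± 6.41 CPM (SD, n = 5) to 42.7 ± 10.5 CPM (adjusted p = 0.2), with the treated library of day 3 lowest at 24.5 CPM.
PSAP, the precursor of the saposins that help degrade sphingolipids, was at 986, 1089, 1149, 1085 and 1103 CPM with PBS and at 1260.4, 1566, 1576, 1635 and 1793 CPM with cetuximab in SCC1 (log2 fold change 0.54 ± 0.08 SE, adjusted p = 0.00016). It rose from 723 ± 64.9 CPM to 1006 ± 210.3 CPM in SCC6 (log2 fold change 0.46 ± 0.14 SE, adjusted p = 0.025) and from 1205 ± 135 CPM to 1564 ± 187 CPM in SCC25 (log2 fold change 0.37 ± 0.09 SE, adjusted p = 0.017). The SCC6 call was lost without PBS of day 2 or 3 or cetuximab of day 4 or 5 (adjusted p up to 0.073). Adding the flow cell gave PSAP 0.22 (adjusted p = 0.11) in SCC6 and 0.23 (adjusted p = 0.21) in SCC25. HEXA, a subunit of beta-hexosaminidase, rose by 0.33, 0.26 and 0.15 in SCC1, SCC6 and SCC25, with adjusted p = 0.00074, 0.032 and 0.049. Without any 1 of 7 libraries the call was lost in SCC6 (adjusted p up to 0.095), and the same held in SCC25 (up to 0.12). GLB1, beta-galactosidase, was at 67.5, 68.6, 72.4, 72.8 and 77.99 CPM with PBS and at 90.7, 98.9, 105, 118 and 125 CPM with cetuximab in SCC1 (log2 fold change 0.59 ± 0.08 SE, adjusted p = 0.00011), and rose in SCC6 by 0.44 (adjusted p = 0.031), a call lost without any 1 of 6 libraries. GLA, alpha-galactosidase A, fell in SCC6, at 20.2, 22.1, 26.8, 23.6 and 22.9 CPM with PBS and at 17.6, 19.1, 13.97, 13.3 and 12.5 CPM with cetuximab (log2 fold change -0.62 ± 0.14 SE, adjusted p = 0.0066). All treated values of GLA in SCC6 were below all PBS values. NAGLU, which cleaves heparan sulfate, rose in SCC1 (0.45, adjusted p = 0.0095), while NEU1 and SGSH passed in no line.

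Of the 5 proton pump genes, 2 rose in SCC1, 2 rose in SCC6 and 1 rose in SCC25, none by more than 0.53 on the log2 scale. ATP6AP1, an accessory subunit, was at 40.5, 34.002, 39.3, 39.4 and 41.7 CPM with PBS and at 52.6, 42.7, 54.3, 70.5 and 64.2 CPM with cetuximab in SCC6 (log2 fold change 0.53 ± 0.13 SE, adjusted p = 0.0091) and rose by 0.32 in SCC1 (adjusted p = 0.00046). The groups did not overlap in either line. ATP6V1A, the catalytic subunit, rose in SCC6 (0.44, adjusted p = 0.021) and SCC25 (0.39, 0.0035), and ATP6V0E1 rose in SCC1 (0.19, 0.024), a call lost without any 1 of 7 libraries. ATP6V0D1 and ATP6V1H passed in no line.

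In SCC1 TFEB and MITF rose and TFE3 fell, in SCC6 TFEB rose, and in SCC25 none of the 3 passed. TFEB in SCC1 was at 2.14, 2.22, 2.31, 2.204 and 2.604 CPM with PBS and at 3.13, 4.2002, 3.69, 3.705 and 4.72 CPM with cetuximab (log2 fold change 0.77 ± 0.13 SE, adjusted p = 0.00036). All treated values were above all PBS values at this low level. In SCC6 TFEB was at 2.09, 1.14, 1.54, 1.86 and 1.91 CPM with PBS and at 2.004, 1.32, 3.93, 6.38 and 8.06 CPM with cetuximab (log2 fold change 1.33 ± 0.43 SE, adjusted p = 0.034). The 2 treated libraries of day 2 lay within the PBS range and the later ones above it, and the call was lost without any 1 of 7 libraries (adjusted p up to 0.10) and once flow cell was added to the fit (0.57, adjusted p = 0.21). In SCC25, where TFEB was highest, it was at 7.94, 10.9, 9.71, 8.904 and 12.2 CPM with PBS and at 14.05, 13.4, 7.28, 10.4 and 10.2 CPM with cetuximab, which did not pass (adjusted p = 0.58).
TFE3 in SCC1 was at 59.3, 80.6, 83.5, 78.6 and 67.6 CPM with PBS and at 57.8, 65.1, 62.7, 60.3 and 62.4 CPM with cetuximab (log2 fold change -0.25 ± 0.08 SE, adjusted p = 0.027). 1 treated library lay below all of PBS, the others within its range, and the call was lost without PBS of day 2, 3 or 4 or cetuximab of day 1 or 4 (adjusted p up to 0.067). In SCC6 TFE3 went from 36.1 ± 5.79 CPM (SD, n = 5) to 45.2 ± 11.1 CPM (adjusted p = 0.2) and in SCC25 from 53.8 ± 4.78 CPM to 51.3 ± 5.03 CPM (0.58), and neither passed. MITF in SCC1 was at 3.61, 3.51, 3.76, 3.24 and 5.83 CPM with PBS and at 5.04, 5.21, 5.75, 5.45 and 6.89 CPM with cetuximab (log2 fold change 0.51 ± 0.16 SE, adjusted p = 0.019). The highest PBS value was that of day 5, the only PBS library on the flow cell of the treated ones. Once flow cell was added to the fit the log2 fold change was -0.03 (adjusted p = 0.93). The call was also lost without PBS of day 2 or 4 or cetuximab of day 5 (adjusted p up to 0.055). In SCC6, where MITF was most abundant, it did not pass (42.998 ± 10.5 CPM with PBS and 46.5 ± 7.78 CPM with cetuximab, adjusted p = 0.74), nor did it in SCC25 (0.37, 0.085).

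Of the 6 autophagy genes, GABARAPL1 and WIPI1 are described above. ULK1, the kinase that starts autophagosome formation, was at 40.97, 50.3, 47.5, 42.7 and 33.03 CPM with PBS and at 64.3, 69.05, 61.6, 69.8 and 79.4 CPM with cetuximab in SCC1 (log2 fold change 0.69 ± 0.11 SE, adjusted p = 0.0002). In SCC6 ULK1 was at 70.2, 41.8, 45.7, 44.3 and 41.9 CPM with PBS and at 73.02, 50.3, 89.1, 159 and 142 CPM with cetuximab (log2 fold change 1.06 ± 0.28 SE, adjusted p = 0.015). The groups did not overlap in SCC1, and in SCC6 PBS of day 1 was above the other PBS libraries and 1 treated library lay below it. In SCC25 it was at 37.6, 41.98, 43.7, 42.1 and 54.98 CPM with PBS and at 59.9, 61.98, 30.3, 54.5 and 54.98 CPM with cetuximab, which did not pass (adjusted p = 0.34). The transcripts of ULK1 have a GC content of 64.5%, and with the GC trend removed its log2 fold change was 0.65 (adjusted p = 0.0011) in SCC6 and 0.35 (adjusted p = 0.0015) in SCC25.
MAP1LC3B, the best known LC3 gene and a relative of GABARAPL1, fell in SCC1, from 134 ± 7.03 CPM (SD, n = 5) to 113 ± 6.76 CPM (log2 fold change -0.24 ± 0.05 SE, adjusted p = 0.0032), without overlap of the groups. It did not pass in SCC6 (131 ± 22.4 CPM and 108 ± 18.7 CPM, adjusted p = 0.14) or SCC25 (adjusted p = 0.69). SQSTM1, which encodes the autophagy receptor p62, was abundant and passed in no line (adjusted p = 0.96, 0.99 and 0.57). In SCC1 it was at 836, 1209, 1329, 1092 and 777 CPM with PBS and at 909, 1326, 1162, 995 and 771 CPM with cetuximab, so that the range over days within a treatment was wider than the difference between treatments on any day. UVRAG, part of the Beclin 1 complex, also passed in no line.

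The change with cetuximab differed between the lines for 13 of the 37 genes, where 26.1% of all 21414 genes tested differed. These were CTSB, CTSD, CTSH, CTSL, CTSS, CTSZ, TPP1, GLA, GLB1, NPC1, NPC2, TFE3 and GABARAPL1, so 7 of the 10 cathepsins and peptidases were among them. With the day as a block 25 of the 37 differed (42.0% of all genes). Once flow cell was added to the fit 4 did (14.4% of all genes), namely CTSD, CTSL, CTSS and NPC2. GABARAPL1 rose less in SCC25 than in SCC6, by 1.07 ± 0.32 SE (adjusted p = 0.018), and less than in SCC1 by 0.97 ± 0.32, which did not pass (0.052), while SCC6 and SCC1 differed by 0.10 ± 0.32 (0.88). CTSD rose in SCC1 by 1.22 ± 0.27 more than its change in SCC6 (adjusted p = 0.0013).
CTSB in SCC25 differed from SCC1 by 0.62 ± 0.16 (adjusted p = 0.012) and from SCC6 by 0.54 ± 0.16 (0.02). CTSL in SCC25 differed from SCC1 by 0.61 ± 0.12 (adjusted p = 0.00087) and from SCC6 by 0.43 ± 0.12 (0.011). For both genes the value of SCC25 was the higher one. The change of CTSS was lower in SCC6 than in SCC25 by 1.15 ± 0.30 (adjusted p = 0.0078). NPC2 rose more in SCC6 than in SCC1, by 0.37 ± 0.12 (0.021), and than in SCC25, by 0.53 ± 0.12 (0.0017). The change of NPC1 was higher in SCC6 than in SCC1 by 0.53 ± 0.16 (0.017). For TFEB the lines did not differ by the test over all 3 (adjusted p = 0.074).

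**Figure D4:**
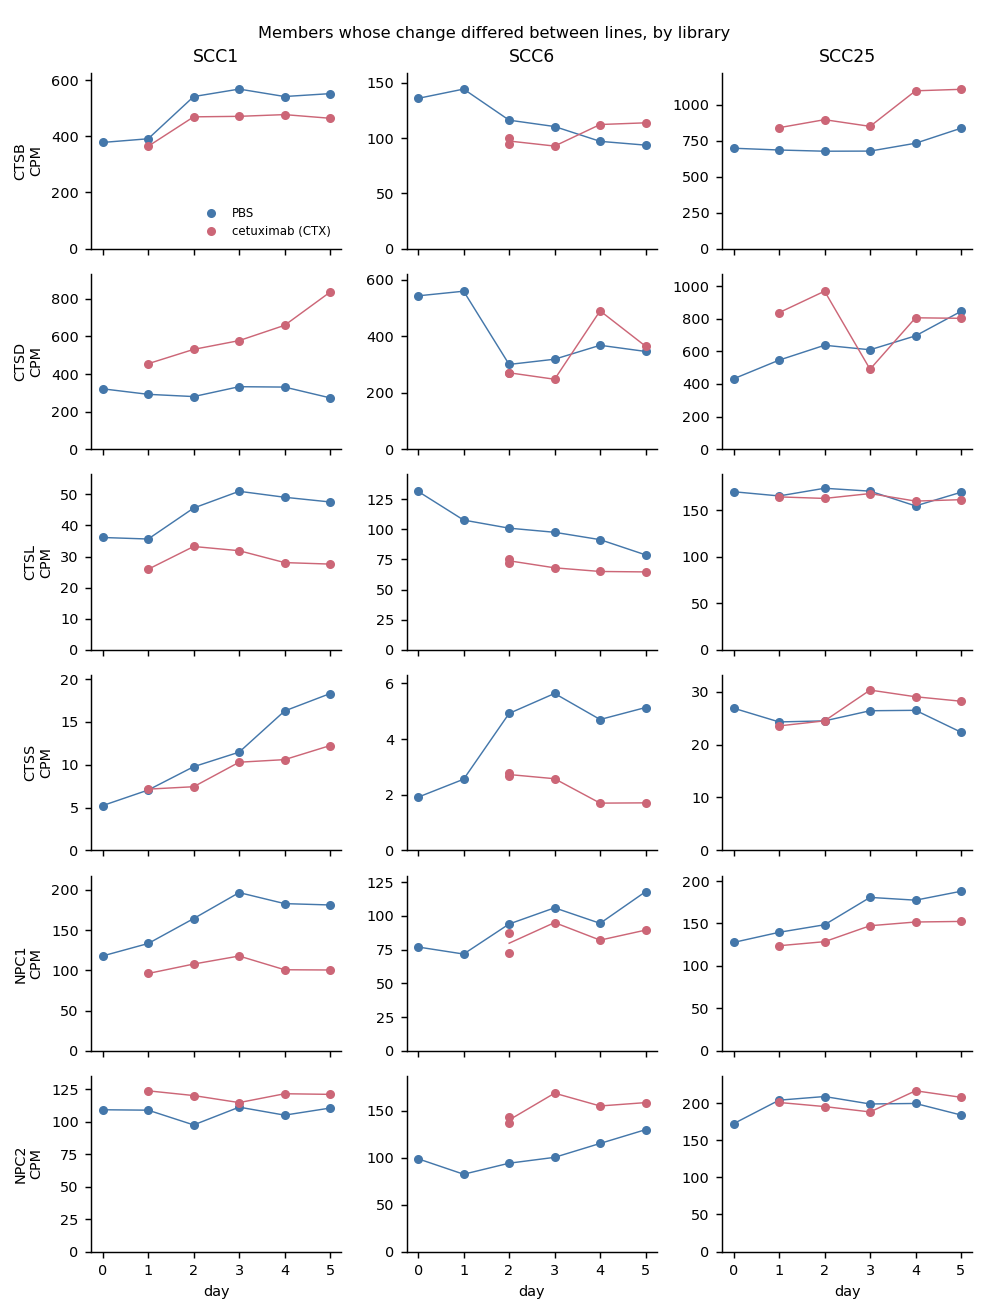
CPM by day for 6 of the 13 genes whose change differed between the lines, drawn as in the plot of the shared genes with blue for PBS, red for cetuximab and axes from 0. CTSL lies lower with cetuximab in SCC1 and SCC6 and overlaps PBS in SCC25, CTSB lies above PBS without overlap in SCC25, and CTSD separates on every day in SCC1.

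Whether the change on days 4 and 5 differed from that on days 1 to 3 was tested in each line, and no gene of the table passed by edgeR. At an unadjusted p under 0.05 there were 4 of the 37 in SCC1 (7.42% of all genes), 13 in SCC6 (29.4% of all genes) and none in SCC25 (2.89% of all genes). DESeq2 called 7 of the 37 in SCC6 (18.6% of all genes) and none in SCC1 (0.158%) or SCC25 (0.0145%), and with the day as a block edgeR called 9 in SCC6 (12.9%). Without SCC6 PBS of day 1 or of day 3 edgeR called 4, where 1424 and 973 of all genes were called. In SCC6 the 4 largest differences, late minus early, were those of GAA, with log2 fold changes of 0.10 ± 0.32 SE on days 1 to 3 and 2.24 ± 0.41 on days 4 and 5 (DESeq2 adjusted p of the difference = 0.0032), of ULK1, with 0.39 ± 0.23 and 1.80 ± 0.29 (0.0086), of TFEB, with 0.56 ± 0.37 and 1.93 ± 0.43 (0.085), and of NAGLU, with 0.02 ± 0.25 and 1.37 ± 0.31 (0.016). The early and late log2 fold changes there were 1.63 and 1.86 for GABARAPL1 and 0.73 and 0.75 for WIPI1. The early change in SCC6 sets cetuximab of days 2 and 3 against PBS of days 1 to 3. PBS of day 1, with a GC slope of 0.32, was at 14.8 CPM for GAA, against 5.93 and 5.95 on days 2 and 3. For ULK1 it was at 70.2 against 41.8 and 45.7, and for NAGLU at 20.9 against 9.91 and 10.8. The lowest cetuximab values, 7.85, 50.3 and 13.7 CPM in that order, lay above PBS of days 2 and 3. For TFEB, PBS was at 2.09, 1.14 and 1.54 CPM and the lowest cetuximab value was 1.32.
The SCC6 libraries of days 4 and 5 with cetuximab, alone on their flow cell, were those with GC slopes of 0.42 and 0.24. Across the 37 genes the late minus early difference in SCC6 had a Pearson correlation of 0.85 with transcript GC content (Spearman 0.86), a description over genes that share the same libraries. It was 0.67 in SCC1 and -0.38 in SCC25. The 8 genes with a GC content of at least 60% had a median difference of 1.11 in SCC6 and the 29 others one of 0.15. With the GC trend removed from each library the correlation in SCC6 was 0.20, and removing the trend lowers it by construction. The removal also takes out any change with cetuximab that goes with GC content, so that these cannot be told apart. After it the difference of GAA was 0.96 and that of ULK1 was 0.33 in SCC6. In SCC1 that of GAA was 0.63 instead of 0.9 and that of CTSD 0.32 instead of 0.54. With the GC trend removed, none of the 37 genes passed by edgeR in any line, with or without the day as a block.

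**Figure D5:**
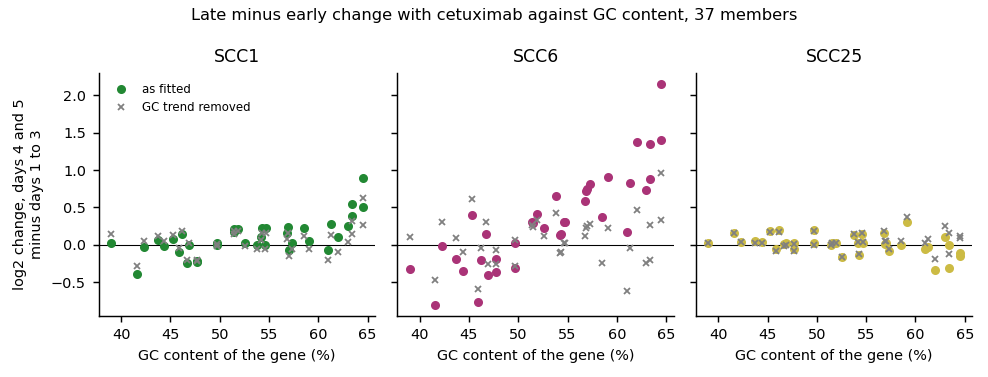
Difference of the log2 fold change between days 4 and 5 and days 1 to 3 against the GC content of the transcripts in percent, 1 point per gene, as fitted (circles) and with the GC trend of each library removed (crosses). In SCC6 the circles climb with GC content (Pearson 0.85). The crosses do not follow them (0.20), which removing the trend brings about by construction. SCC25 stays close to 0.

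Some of the genes moved with the day of culture in PBS alone. Over days 0 to 5 the level of 1 of the 37 rose in SCC1 (CTSS), of 8 rose and 12 fell in SCC6, and of 11 rose in SCC25. Of all genes tested 2.49%, 32.7% and 10.7% had such a trend in the 3 lines, with 1.71%, 13.9% and 7.08% rising and 0.777%, 18.8% and 3.64% falling. No fall passed in SCC1 or SCC25, and at an unadjusted p under 0.05 there was none there either. GABARAPL1 had the smallest adjusted p of the trends in SCC6 and SCC25, at 43.8 CPM on day 0 and 95.7 CPM on day 5 in SCC25 (slope 0.25 ± 0.02 SE, adjusted p = 1e-05, log2 per day). In SCC6 it was at 38.7 and 97.6 CPM (slope 0.25 ± 0.02 SE, adjusted p = 0.00032). The treated library of SCC25 on day 1, at 88.3 CPM, was close to PBS of day 4, at 90.9 CPM. In SCC25 the other genes that rose were CTSA, CTSD, CTSH, PSAP, NPC1, TFE3, MITF, SQSTM1, WIPI1 and ULK1, of which CTSD had the largest slope (0.17 ± 0.02 SE, adjusted p = 0.00053).
In SCC6 the 12 that fell were CTSA, CTSB, CTSD, CTSL, CTSZ, GAA, NAGLU, SGSH, MCOLN1, ATP6V0D1, TFE3 and ULK1. PBS of days 0 and 1 was on another flow cell than PBS of days 2 to 5 in SCC6. Day and flow cell thus cannot be told apart in these trends. Without PBS of day 0 or of day 5 the number of genes with a trend there was 6 or 11 instead of 20. Of all genes 1892 or 3144 had one instead of 5812. In SCC1 the number was 6 instead of 1 without PBS of day 5 (1575 of all genes instead of 474). DESeq2 gave 5 in SCC1 and 13 in SCC25 (1468 and 2474 of all genes). In SCC25 the number was 7, 6 and 4 instead of 11 without PBS of day 0, 1 and 5. Of all genes 1090, 1337 and 1207 had a trend in these fits instead of 2147.

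The 8 genes with CACGTG in their promoter window are set beside the 17 with a window without it. In SCC1, 4 of the 8 rose (CTSA, CTSD, CTSF and GAA) and none fell, and 10 of the 17 rose and 5 fell. In SCC6, 1 of the 8 rose (LAMP1), and 9 of the 17 rose and 2 fell. In SCC25, 1 of the 8 (CTSF) and 3 of the 17 rose and none fell. The median log2 fold change of the 8 was 0.30 in SCC1, 0.23 in SCC6 and 0.20 in SCC25. That of the 17 was 0.32, 0.43 and 0.09. These are descriptions, and neither the letters nor their absence from the window says whether a factor was bound.

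The wider pathway was read from 4 further lists, also chosen with earlier results of these data known. Their counts stand against all genes, of which 22.7% rose and 22.1% fell in SCC1. Of all genes 15.6% rose and 14.6% fell in SCC6, and 8.8% rose and 9.5% fell in SCC25. Of 48 other lysosome genes, 24 rose and 5 fell in SCC1, 14 rose and 3 fell among the 46 tested in SCC6, and 16 rose and 3 fell in SCC25. Of those tested, 50% and 10.4% rose and fell in SCC1, 30.4% and 6.52% did so in SCC6, and 33.3% and 6.25% did so in SCC25. The 5 that fell in SCC1 include LAPTM5, whose few counts are given below. CD68, a glycoprotein of the lysosome membrane best known in macrophages, fell in SCC1 from 34.9 ± 11.5 to 7.77 ± 1.15 CPM (log2 fold change -2.15 ± 0.22 SE, adjusted p = 9.9e-06) and in SCC6 from 17.2 ± 0.956 to 4.72 ± 1.39 CPM (-1.89 ± 0.18 SE, adjusted p = 2.9e-05). In SCC1, LAPTM5, a lysosomal protein of blood cells, held 30 to 141 counts per library with PBS and 2 to 13 with cetuximab, and so entered the test through the PBS libraries and is given without a fold. IDUA, alpha-iduronidase, rose in SCC1 (1.25 ± 0.22 SE, adjusted p = 0.00065). In SCC6, CTSC, cathepsin C, fell from 149 ± 27.9 to 61.4 ± 19.8 CPM (-1.30 ± 0.21 SE, adjusted p = 0.00097) and MANBA, beta-mannosidase, rose (0.91 ± 0.18 SE, adjusted p = 0.0029). In SCC25, CTSO (1.02 ± 0.18 SE, adjusted p = 0.0028), the sorting receptor SORT1 (0.70 ± 0.10 SE, adjusted p = 0.0007) and the acid ceramidase ASAH1 (0.65 ± 0.08 SE, adjusted p = 0.00026) rose.
Of the 20 other proton pump genes, 3 rose and 4 fell among the 17 tested in SCC1, none rose (none at an unadjusted p under 0.05 either) and 3 fell among 18 in SCC6, and 3 rose among 18 in SCC25. Of those tested, 17.6% and 23.5% rose and fell in SCC1, 0% and 16.7% did so in SCC6, and 16.7% and 0% did so in SCC25. The 3 that rose in SCC1 include ATP6V1B1, whose few counts are given below. ATP6V1D fell in SCC1 (-0.61 ± 0.06 SE, adjusted p = 7.9e-06) and SCC6 (-0.39 ± 0.11 SE, adjusted p = 0.018). ATP6V0D2, a tissue-restricted subunit at a few CPM, fell in SCC6 (-1.30 ± 0.22 SE, adjusted p = 0.0011) and rose in SCC25 (0.40 ± 0.11 SE, adjusted p = 0.024). The other subunits named by size were ATP6V0C, which fell in SCC1 (-0.41), ATP6V0A2, which fell in SCC6 (-0.28), and ATP6V0A1 and ATP6V1E1, which rose in SCC25 (0.35 and 0.23), while ATP6V1B1 in SCC1 held 1 to 2 counts per library with PBS and 14 to 26 with cetuximab, and so entered the test through the treated libraries and is given without a fold.
Of 43 other autophagy genes, 13 rose and 6 fell among the 41 tested in SCC1, 7 and 3 among 40 in SCC6, and 5 and 1 among 42 in SCC25. Of those tested, 31.7% and 14.6% rose and fell in SCC1, 17.5% and 7.5% did so in SCC6, and 11.9% and 2.38% did so in SCC25. TP53INP1 and TP53INP2, both of which bind LC3-family proteins, had the largest changes in each line. TP53INP1 rose from 8.81 ± 1.197 to 18.6 ± 3.15 CPM in SCC1 (1.09 ± 0.13 SE, adjusted p = 2.6e-05), from 8.76 ± 0.859 to 25.4 ± 4.22 CPM in SCC6 (1.52 ± 0.13 SE, adjusted p = 1.8e-05) and from 7.73 ± 1.47 to 15.3 ± 2.35 CPM in SCC25 (0.98 ± 0.14 SE, adjusted p = 0.001). TP53INP2 rose by 0.73, 1.49 and 0.74 on the log2 scale in SCC1, SCC6 and SCC25 (adjusted p = 0.00053, 0.00015 and 0.00099). BNIP3, a mitophagy receptor, fell in SCC1 (-0.66 ± 0.10 SE, adjusted p = 0.0002), ATG16L1, needed to attach LC3 to membranes, fell in SCC6 (-0.66 ± 0.09 SE, adjusted p = 0.00032), and ULK2, the paralogue of ULK1, rose in SCC25 (0.39 ± 0.07 SE, adjusted p = 0.0033).
Of 19 genes of the machinery that regulates TFEB, 4 rose and 1 fell in SCC1, 4 rose among the 17 tested in SCC6, and none passed in SCC25, where 4 were higher and 2 lower at an unadjusted p under 0.05. Of those tested, 21.1% and 5.26% rose and fell in SCC1, 23.5% and 0% did so in SCC6, and 0% and 0% did so in SCC25. FLCN, which controls TFEB and TFE3 through the Rag GTPases, rose in SCC1 (0.29 ± 0.07 SE, adjusted p = 0.004) and SCC6 (0.78 ± 0.17 SE, adjusted p = 0.0057), as did RRAGB, one of the Rag genes (0.45 and 0.48). FNIP2, a partner of FLCN, rose in SCC6 from 11.5 ± 1.13 to 24.2 ± 5.03 CPM (1.06 ± 0.15 SE, adjusted p = 0.00037), and RHEB, the activator of mTORC1, fell in SCC1 (-0.26 ± 0.05 SE, adjusted p = 0.0018).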

How the data were processed

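RNA from SCC1, SCC6 and SCC25 cells was sequenced after poly(A) selection with a stranded kit, 33 libraries in all. The authors deposited estimated counts per gene symbol, made with Salmon 0.8.2 per the submitters' processing notes, which name hg19 and GRCh37. These expected counts were rounded to whole numbers, without a transcript-length offset. Genes passing filterByExpr were tested with edgeR 4.0.16 (TMM scaling, quasi-likelihood test, Benjamini-Hochberg adjusted p under 0.05 over all genes tested) in R 4.3.3, with 5 cetuximab against 5 PBS libraries of days 1 to 5 in each line. Differences between lines (30 libraries), between days 4 and 5 and days 1 to 3, in PBS level (15 libraries) and in PBS trend (6 per line) were tested likewise. CPM are counts scaled to the TMM-adjusted library size. Members and lists were chosen with earlier results of these data known. Values per library are given for members that passed in a line with a log2 fold change of 0.5 or more in size, and for TFEB, TFE3 and MITF. In the other lists, the 3 called genes of largest change per line are named. DESeq2 1.42.0, its size factors, no filter, flow cell, day 0 added to PBS, each library left out, and the day as a block were alternatives, and GC trend removal and SCC6 days 3 to 5 alone were added after seeing the data. The labels give PBS and cetuximab libraries the same days in SCC1 and SCC25. In SCC6 day 1 has PBS alone and day 2 has 2 cetuximab libraries. Deviations of same-day libraries correlated with r of 0.11 to 0.38 in SCC1, 0.22 to 0.58 in SCC25 and -0.20 to 0.60 in SCC6. GC content was taken from GENCODE transcripts of GRCh37, and promoter letters from RefSeq (GRCh38.p14), placed in GRCh37 by exact match. The tests were also run on simulated counts without differences by flow cell or GC content and without a spread shared by days. That run therefore cannot show how such differences act on the results.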

Additional observations from a re-analysis of the deposited data

Results flagged for a closer look

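In 24 of 222 groups of 5 libraries (a gene in 1 line and treatment), the highest or lowest library stood apart from the others by Dixon's criterion, which chance meets in about 1 in 20 groups. Of the 24, 10 were low values of the SCC25 cetuximab library of day 3: CTSA at 126 CPM (others 178 to 192), CTSH at 229 CPM (others 276 to 290.2), GAA at 24.5 CPM (others 43.98 to 50.3), NAGLU at 13.5 CPM (others 19.2 to 21.3), SGSH at 15.4 CPM (others 21.2 to 22.3), MCOLN1 at 6.19 CPM (others 9.0002 to 9.81), ATP6V0D1 at 83.4 CPM (others 101 to 103), ATP6AP1 at 75.3 CPM (others 96.6 to 100.3), SQSTM1 at 422 CPM (others 536 to 561) and ULK1 at 30.3 CPM (others 54.5 to 61.98). A further 7 were high values of the SCC6 PBS library of day 1: CTSA at 112 CPM (others 71.7 to 82.7), CTSD at 559.9 CPM (others 300.4 to 368), GAA at 14.8 CPM (others 5.93 to 7.04), NAGLU at 20.9 CPM (others 9.91 to 11.3), SGSH at 28.9 CPM (others 18.1 to 19.9), TFE3 at 46.4 CPM (others 32.4 to 34.8) and ULK1 at 70.2 CPM (others 41.8 to 45.7). These 2 libraries had GC slopes of -0.34 and 0.32 on the log2 scale per 10 percentage points, and the part of GC content in each value was not tested.

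In SCC1 the libraries of day 1 were low for some genes, with PBS for CTSB at 391 CPM (others 541 to 568) and WIPI1 at 14.9 CPM (others 21.1 to 22.3), and with cetuximab for CTSB at 364 CPM (others 464 to 477) and ATP6V0E1 at 108 CPM (others 123 to 127). In both treatments CTSB was thus lowest on day 1. The SCC1 PBS library of day 5 was high for MITF at 5.83 CPM (others 3.24 to 3.76), the SCC1 cetuximab library of day 5 for ATP6V0D1 at 112 CPM (others 104 to 106), and the SCC25 PBS library of day 5 for GAA at 44.4 CPM (others 27.7 to 32.5).

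The change with cetuximab differed between SCC1, SCC6 and SCC25 for 13 genes by the line-by-treatment term of edgeR's quasi-likelihood test, with adjusted p = 0.00075 for CTSL, 0.0025 for NPC2, 0.003 for CTSD, 0.0076 for CTSB, 0.014 for TPP1, 0.015 for CTSS, 0.018 for GABARAPL1, 0.021 for NPC1, 0.029 for CTSH, 0.032 for GLA, 0.04 for TFE3, 0.041 for CTSZ and 0.044 for GLB1. CTSB, CTSD, CTSL, CTSS, NPC2, TPP1 and GABARAPL1 passed whichever 1 library was left out. NPC1 did not pass without SCC1 PBS of day 3, nor CTSH without SCC25 PBS of day 5 or SCC25 cetuximab of day 3, and of 30 such fits CTSZ did not pass in 15, GLA in 9, GLB1 in 19 and TFE3 in 14.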

How the results depend on the processing

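The labels pair PBS and cetuximab libraries by day, except that SCC6 PBS of day 1 has no cetuximab library. With the day as a replicate block 29 genes changed in SCC6 (23 higher, 6 lower), with 8 lower in SCC1 and 1 lower in SCC25. The unpaired PBS library adds nothing to the change in SCC6 in that fit. With the block 25 genes differed between lines and 9 by period in SCC6. With GC trend removal and the block, both chosen after seeing the data, 9 were lower in SCC1, 8 lower in SCC6, 25 changed in SCC25 (22 higher, 3 lower) and 26 differed between lines. With GC trend removal alone 7 were lower in SCC6 and 20 changed in SCC25 (18 higher, 2 lower). With the flow cell as a covariate 13 changed in SCC1 (11 higher, 2 lower) and 3 in SCC25 (2 higher, 1 lower), and 4 differed between lines. By period, DESeq2 gave 7 and no filter on low counts 12 genes in SCC6 (2735 and 3366 of all genes). No filter gave 2 in SCC1 (202 of all genes). For the PBS trend in SCC1, DESeq2 gave 5 and no filter 2 (1468 and 634 of all genes). The number that rose in all 3 lines, recomputed after seeing the data, was 0 with the flow cell, 10 with GC trend removal, 13 with the block besides, and 3 to 9 with 1 library left out. The share of all genes was not recomputed for that number. The causes were not tested. Of all the other counts recomputed under an alternative, 250 were within 1.5 times the value reported and 49 were not. Of the values by gene and line, 1165 kept direction and call, 115 lost and 63 gained a call, and 13 changed sign.

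Leaving out 1 library at a time gave 21 to 26 changed genes in SCC1 (17 to 19 higher, 3 to 8 lower), 11 to 24 in SCC6 (8 to 18 higher, 3 to 6 lower) and 7 to 17 in SCC25 (7 to 17 higher, 0 to 1 lower). It gave 9 to 19 genes that differed between lines, 34 to 35 by PBS level and 0 to 4 by period in SCC6. It also gave 1 to 6, 6 to 21 and 4 to 13 with a PBS trend in SCC1, SCC6 and SCC25. Of all genes, 7083 to 8328 changed in SCC1, 3791 to 6614 in SCC6 and 2193 to 4006 in SCC25 in these fits.

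Of the log2 fold changes of genes that passed in that line or are given for every library, these changed sign. With the flow cell as a covariate, CTSK (-0.06) and MITF (-0.03) did in SCC1, and CTSS (-0.04), NPC2 (-0.01) and TFE3 (0.01) in SCC25. MITF in SCC6 was at -0.07 with the replicate block, -0.02 with GC trend removal and the block, -0.05 to 0.17 with 1 library left out (lowest without PBS of day 1) and -0.22 on days 3 to 5 alone, where CTSD was at 0.07. NPC2 in SCC25 was at -0.03 with GC trend removal, -0.02 with the block added and -0.01 to 0.05 with 1 library left out (lowest without cetuximab of day 4). Of these only MITF in SCC1 had passed the test. Of all 59 values by gene and line that had not passed, 22 changed sign under some setting, among them values of ATP6V0D1, ATP6V1H, CTSB, MAP1LC3B, MCOLN1, NEU1, SGSH, SQSTM1, TPP1 and UVRAG.

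Apart from SCC6 with cetuximab on day 2, no line has more than 1 library per treatment and day, so that culture and day cannot be told apart, and genes at a few CPM, such as TFEB, CTSF and CTSK, rest on the fewest reads.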
